A study of Mus musculus with 6 samples.

Results

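Small nuclear, nucleolar and Cajal body RNAs were followed in RAW264.7 cells, a mouse macrophage line, after 24 h with lipopolysaccharide (LPS, 100 ng/mL) plus 3A2 (50 µg/mL), an antibody that neutralizes the matrix metalloproteinase MMP14, or with the same dose of LPS alone. LPS comes from the outer membrane of bacteria and is sensed through TLR4, so all cultures had an inflammatory stimulus. Each group had 3 biological replicates of this single line, and cells without LPS or with a control antibody were not analysed here. The RNAs were the genes of the count table whose symbol starts with Snora, Snord, Scarna, Rnu or Rn7s and whose counts summed to 10 or more over the 6 libraries, which gave 78 of the 40773 symbols listed and of the 13792 with 10 or more counts. They were thus chosen by symbol and by total count over both groups together, not by the difference between the groups.

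Small nuclear RNAs (snRNAs) form the core of the spliceosome, in which U1 and U2 recognise the start of the intron and its branch point, U5 holds the exons together, and U11 and U12 serve the rare minor introns. Small nucleolar RNAs (snoRNAs) guide chemical changes of ribosomal RNA: box C/D RNAs (Snord) direct ribose methylation and box H/ACA RNAs (Snora) direct pseudouridylation, while a few such as U3 and U17 act in cutting the ribosomal precursor. Cajal body RNAs (Scarna) guide the same changes on snRNAs. 7SL is the RNA scaffold of the signal recognition particle, which brings secreted proteins to the endoplasmic reticulum, and 7SK holds the elongation factor P-TEFb inactive.

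By symbol the 78 genes were 7 Rnu, 3 Rn7s, 30 Snora, 34 Snord and 4 Scarna. A further 53 of the 160 symbols with these prefixes had no count and 29 had 1 to 9 counts. Snora30, with 12 counts in all, lay just inside the limit, and Snord12 and Snora65, with 8 each, lay just outside. Rnu6 and Rnu7, the symbols of U6 and of the histone-processing U7 RNA, had 0 counts in every library, which allows 0.404 to 0.495 CPM in a library, for counting error only. CPM are counts scaled to a common library total. Snord3b1, Snord3b2 and Snord3b3, which are U3 genes, had identical counts in all 6 libraries and are counted as 1 gene below, which leaves 76 distinct genes. Rnu1a1, a U1 gene, had the same counts as 3 predicted genes outside the symbol rule, Gm22068, Gm22634 and Gm26444.

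The LPS plus 3A2 libraries held 6060732 to 6537419 counts and the LPS libraries 6431096 to 7432553. The small RNAs made up 5.07% to 5.82% of counts with LPS plus 3A2 and 5.49% to 6.01% with LPS, ranges that overlapped. All 10 macrophage markers examined had counts, with a summed level of 6252 to 6693 CPM with LPS plus 3A2 and 7185 to 7254 CPM with LPS. Of 17 markers of other cell types 11 were at 0, and the sum was 1.23 to 3.0 CPM with LPS plus 3A2 and 2.34 to 3.22 CPM with LPS. The macrophage sums did not overlap. Most of that gap came from Lyz2, the lysozyme gene, with 3902, 3763 and 3653 CPM with LPS plus 3A2 and 4345, 4389 and 4253 CPM with LPS. Csf1r also lay below, with 441.2, 434.9 and 396.1 CPM with LPS plus 3A2 and 475.2, 470.5 and 503.6 CPM with LPS. So did Itgam, with 403.8, 408.8 and 403.8 CPM with LPS plus 3A2 and 422.4, 435.9 and 433.5 CPM with LPS. Over all genes tested, 6.46% lay below in this way. Cd14, Cd68, Ptprc, Adgre1, Spi1, Fcgr1 and Mertk overlapped between the groups. The part of these differences in the results below was not tested. In bulk RNA, fewer cells of a type and less RNA per cell cannot be told apart.

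No small RNA passed the test, and 1 gene, the U5 snRNA Rnu5g, had all its LPS plus 3A2 libraries above all its LPS libraries. A filter on low counts kept 54 of the 78 genes, 52 of them distinct, and 24 fell below it. With edgeR's quasi-likelihood test and p-values adjusted over 11498 genes by Benjamini-Hochberg, 0 of the 52 were called under 0.05, against a background of 0% of all genes. At an unadjusted p under 0.05 there were 3 of 52, Rnu5g and Snord83b higher and Snord15a lower, where 6.51% of all genes passed the same limit, 3.43% higher and 3.09% lower. Under it DESeq2 had 2 of the 52 and 379 of all genes, and limma-voom 4 and 740, and neither called any gene after adjustment. Groups that did not overlap were seen for 1 of 52 (1.92%), Rnu5g, against 12.3% of all genes, of which 5.84% had LPS plus 3A2 above and 6.46% below. The log2 fold change of LPS plus 3A2 over LPS was above 0 for 22 and below 0 for 30 (57.7%, against 49.6% of all genes), with a median of -0.02, and over all genes the median was 0.0017. Intervals (95%) stayed inside a 1.5-fold change, up or down, for 21 of 52 and inside a 2-fold change for 35, against 9147 and 10819 of the 11498 genes, so that many of the small RNAs were bounded less tightly than the typical gene. Their median SD between replicates was 0.33 on the log2 scale, and that of all genes 0.14.

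**Figure D1:**
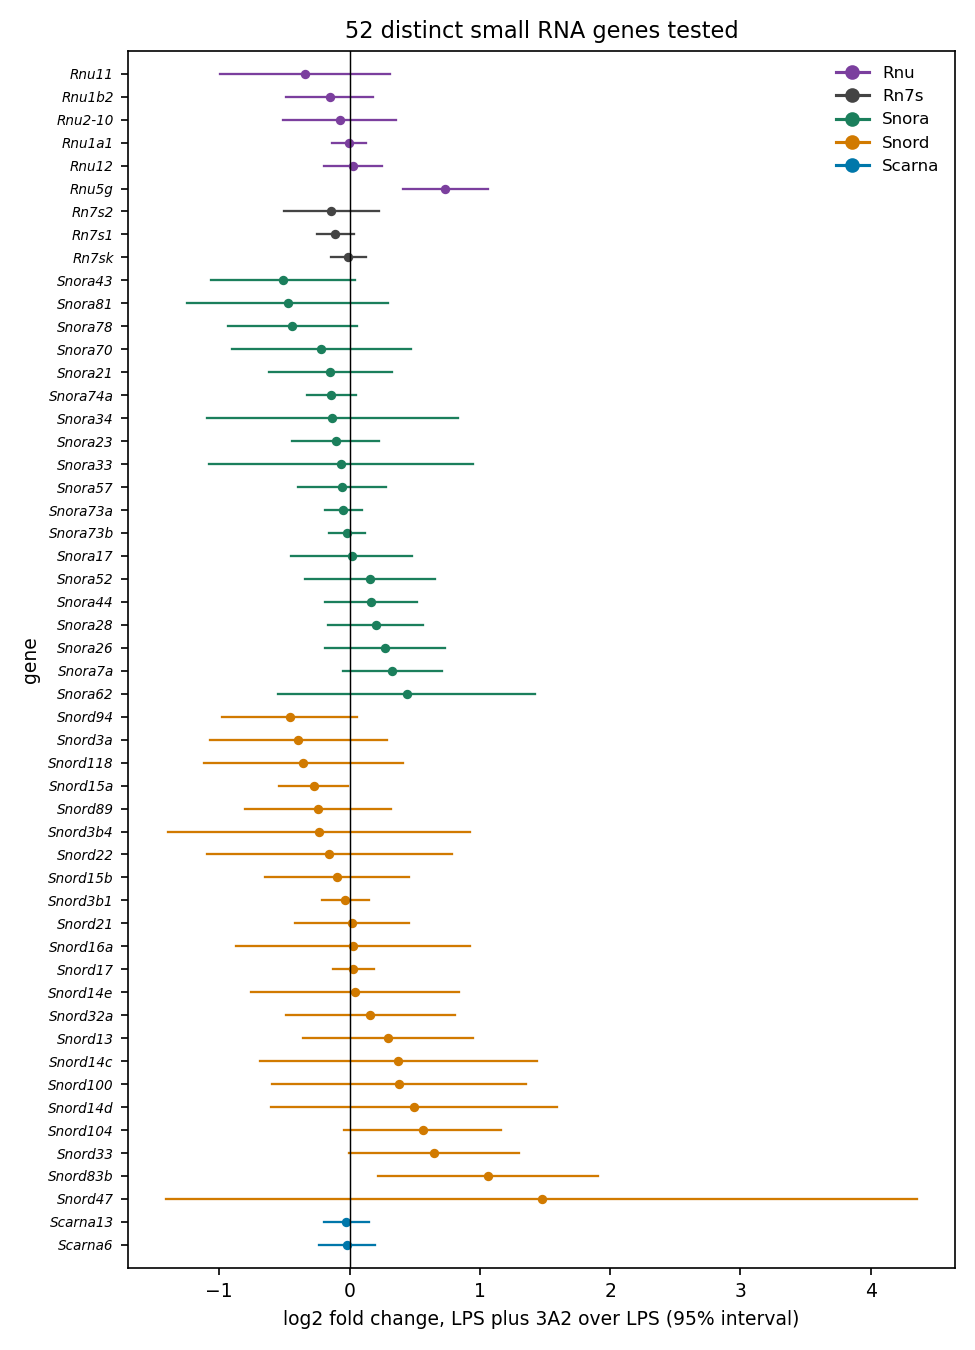
Log2 fold change of LPS plus 3A2 over LPS (x axis) with its 95% interval (bars) for each of the 52 distinct small RNA genes tested, coloured by class. Most intervals cross 0, those of Rnu5g and Snord83b lie above it and that of Snord15a below it.

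The summed level of each class overlapped between the groups. Rnu genes summed to 4579, 4417 and 5276 CPM with LPS plus 3A2 and 5041, 4954 and 4427 CPM with LPS, a ratio of 0.990. Snora genes had a ratio of 0.978, Scarna genes 0.986, Rn7s genes 0.943 and Snord genes 0.927. Snord genes varied most between replicates, with sums of 1843, 1539 and 2081 CPM with LPS plus 3A2 and 2057, 2178 and 1661 CPM with LPS. The Scarna sums varied least, at 120.0 to 120.8 CPM with LPS plus 3A2 and 119.1 to 125.4 CPM with LPS. Without LPS replicate 3, which had the 119.1 CPM, the Scarna sums did not overlap. That library was picked after its value was seen, and the share of all genes that would do the same was not computed. Scarna13 and Scarna6, which make up most of the sum, each overlapped between the groups.

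Per length of RNA, the order of levels of single genes over all libraries was led by 7SL. Near-identical genes were not summed here, so this is not an order of whole RNA families. Rnu5g, for example, held 20.5% to 48.0% of the summed CPM of the U5 genes in a library. Rn7s1, a 7SL gene, had a mean of 121800 CPM per kb, Rn7sk 34830, Rnu1a1 13320 and Rnu2-10, a U2 gene, 12100. Rn7s2 with 2526, Rnu5g with 1450, Snora73b with 1333 and Snora73a with 1057 CPM per kb followed. Snord15b was at 944, Rnu12 at 633, Snord22 at 516 and Snord17 at 492 CPM per kb. The U3 genes had no length in the annotation used and have no place in this order. Per length, the libraries of Rnu1a1 and Rnu2-10 overlapped in range, and so did those of Rnu5g and Snora73b.

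The U5 gene Rnu5g separated the groups, while the U5 genes summed did not. Rnu5g measured 216.1, 215.4 and 199.1 CPM in the LPS plus 3A2 libraries, against 154.8, 125.5 and 98.2 CPM in the LPS libraries. The LPS plus 3A2 libraries lay close together and all above the LPS libraries, which spread more widely. The means were 210.2 ± 9.59 CPM with LPS plus 3A2 and 126.2 ± 28.3 CPM with LPS (SD, n = 3 each), a fold change of 1.67 (95% interval 1.33 to 2.09; log2 0.74, SE 0.14). The adjusted p was 0.719 by edgeR, so Rnu5g was not called. The call changed with the processing. Without a filter on low counts the adjusted p was 3.56e-16, where edgeR called 0.088% of all genes, and DESeq2 with its own filter on the whole table gave 6.78e-06, where Rnu5g was the only gene called (0.0055%). With LPS replicate 1, the highest of its group, left out the adjusted p was 0.000209 by edgeR at a log2 fold change of 0.91. Rnu5g was the only gene called there (0.00859%). Leaving out any other single library gave no call for Rnu5g, with adjusted p of 0.0617 to 0.991 by edgeR. With LPS replicate 3 and LPS plus 3A2 replicate 2 both left out it was 0.00497 at 0.57, where 0.0692% of all genes were called. Those 2 libraries were picked after the levels of the short RNAs, Rnu5g among them, were seen. The p-value without them is therefore not a separate test of Rnu5g. Over 17 alternatives the adjusted p ranged over 3.56e-16 to 0.991, with 5 under 0.05, and the log2 fold change over 0.57 to 0.91.

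Rnu5g is 1 of several U5 genes of nearly the same sequence. In GENCODE M21 on GRCm38 the closest is Gm25313, 97.4% identical, followed by Gm23287 with 94.8%, Gm25099 with 93.1% and Gm23143 with 91.4% identity over transcripts of 116 bases. How the authors' counting treated reads that fit several genes is not given in the sources used here, so the split of U5 reads between these genes is uncertain.

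The other U5 genes did not separate the groups as Rnu5g did. Gm25313 had 162.1, 71.8 and 248.8 CPM with LPS plus 3A2 and 279.5, 251.2 and 148.8 CPM with LPS, a fold change of 0.708 (95% interval 0.251 to 2.0). Gm25099 had 137.8, 106.9 and 255.8 CPM with LPS plus 3A2 and 151.3, 149.7 and 88.0 CPM with LPS, a fold change of 1.28 (0.554 to 2.97). Both overlapped between the groups, and within the LPS plus 3A2 group replicate 3 was highest and replicate 2 lowest. Gm23287 and Gm23143 overlapped as well, with fold changes of 1.25 (0.473 to 3.31) and 1.07 (0.564 to 2.01). All 6 U5 genes with a count summed to 602.7, 449.1 and 807.7 CPM with LPS plus 3A2 and 671.2, 612.1 and 378.5 CPM with LPS, a ratio of 1.12 with groups that overlapped. Rnu5g made up 35.9%, 48.0% and 24.7% of that sum with LPS plus 3A2, against 23.1%, 20.5% and 26% with LPS, and these shares overlapped as well. The 5 genes without Rnu5g had a ratio of 0.958.

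**Figure D2:**
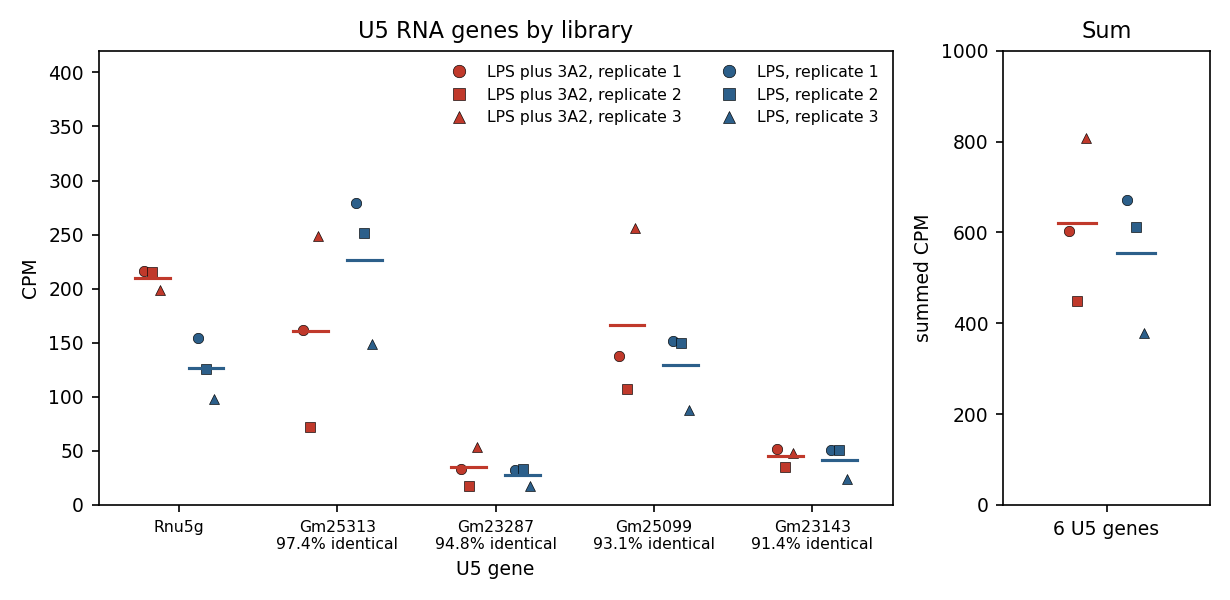
CPM (y axis) of Rnu5g and of 4 related U5 genes, each with its identity to Rnu5g, in every library, and at the right the sum of the 6 U5 genes with a count; bars are group means, red LPS plus 3A2 and blue LPS. Only Rnu5g separates the groups among the genes drawn, and the sum overlaps.

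U1 differed by less than the spread between replicates. Rnu1a1 measured 2305, 2132 and 2102 CPM with LPS plus 3A2 and 2314, 2240 and 2008 CPM with LPS, with a fold change of 0.997 (95% interval 0.910 to 1.09). Rnu1b2, a U1 variant, was at 14.3, 14.1 and 18.2 CPM with LPS plus 3A2 and 20.9, 13.8 and 17.2 CPM with LPS, which overlapped. Rnu1b6, another variant, had 93 counts, all of them in LPS replicate 1, and fell below the filter. The 3 sequences are given because reads were divided so unevenly among genes that differ in few bases. Sequences here and below are from the same GENCODE release. Capitals mark the 5′ end that pairs with the start of the intron (ACTTACCTG, in 3.98% of 1383 snRNA transcripts on the RNA strand) and the Sm site, where the ring of Sm proteins binds (AATTTGTGG, in 4.7%).
Rnu1a1: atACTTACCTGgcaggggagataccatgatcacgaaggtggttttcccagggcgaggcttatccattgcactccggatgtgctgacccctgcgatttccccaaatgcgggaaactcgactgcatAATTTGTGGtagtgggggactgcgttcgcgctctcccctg
Rnu1b2: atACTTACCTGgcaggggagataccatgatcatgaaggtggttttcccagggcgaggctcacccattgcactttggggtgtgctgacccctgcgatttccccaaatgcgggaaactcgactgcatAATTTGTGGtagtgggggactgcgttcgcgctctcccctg
Rnu1b6: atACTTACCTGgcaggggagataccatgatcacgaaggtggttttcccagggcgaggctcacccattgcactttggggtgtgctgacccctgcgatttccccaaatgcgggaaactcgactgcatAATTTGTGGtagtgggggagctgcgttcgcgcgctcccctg
Rnu1b2 is 95.8% identical to Rnu1a1 and 98.2% identical to Rnu1b6. Gm22614, 99.4% identical to Rnu1b2, had 2207, 2086 and 1878 CPM with LPS plus 3A2 and 2306, 2158 and 1947 CPM with LPS. Gm24830, of the same sequence as Rnu1b6, had 89.2, 74.5 and 84.8 CPM with LPS plus 3A2 and 88.5, 102.6 and 98.4 CPM with LPS. Both overlapped between the groups. The split of U1 reads is thus uncertain, and the rows of Rnu1b2 and Rnu1b6 do not give the level of these variants. Gm24924, 99.4% identical to Rnu1a1, had counts in only 2 libraries, 148 in LPS plus 3A2 replicate 2 and 229 in LPS replicate 1. Gm22317 has the same sequence as Rnu1a1 and yet was given 169 to 340 counts a library with LPS plus 3A2 and 193 to 342 with LPS. Summed over the 20 distinct U1 symbols with a count, the level was 4723, 4407 and 4167 CPM with LPS plus 3A2 and 4842, 4615 and 4163 CPM with LPS, a ratio of 0.976 with groups that overlapped.

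U2 rested on 1 library. Rnu2-10 had 1943, 1966 and 2846 CPM with LPS plus 3A2 and 2424, 2473 and 2222 CPM with LPS. LPS plus 3A2 replicate 3 lay above all LPS libraries and the other LPS plus 3A2 libraries below them all. The fold change was 0.949 (95% interval 0.704 to 1.28), with an adjusted p of 0.949 by edgeR. With LPS plus 3A2 replicate 3 left out, Rnu2-10 was the only gene called of 11647 (0.00859%), lower, at -0.28 on the log2 scale, with an adjusted p of 0.0104, while over all its alternatives the adjusted p reached 0.999. The 10 distinct U2 symbols with a count summed to 4200, 4370 and 6277 CPM with LPS plus 3A2 and 5281, 5418 and 5040 CPM with LPS, so that the same library was high in the sum. Gm24497, 99.0% identical to Rnu2-10, ranged more widely, at 156.9, 169.3 and 874.2 CPM with LPS plus 3A2 and 760.6, 532.7 and 431.2 CPM with LPS. Gm23444, 99.5% identical, was instead lowest of its group in that library. It had 856.7, 919.2 and 754.0 CPM with LPS plus 3A2 and 683.7, 860.1 and 928.0 CPM with LPS. Gm23971, of the same sequence as Rnu2-10, averaged 47.9 CPM with LPS plus 3A2 and 53.3 CPM with LPS. The split of U2 reads between these genes is thus uncertain.

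The minor spliceosome RNAs overlapped between the groups. Rnu12 had 97.8, 85.9 and 105.8 CPM with LPS plus 3A2 and 107.8, 97.4 and 78.6 CPM with LPS, a fold change of 1.02 (95% interval 0.875 to 1.19). Rnu11 was near the filter, at 2.59, 3.07 and 4.67 CPM with LPS plus 3A2 and 6.0, 4.27 and 2.76 CPM with LPS. Its fold change was 0.789 with an interval of 0.502 to 1.24, too wide to bound it within 1.5-fold.

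**Figure D3:**
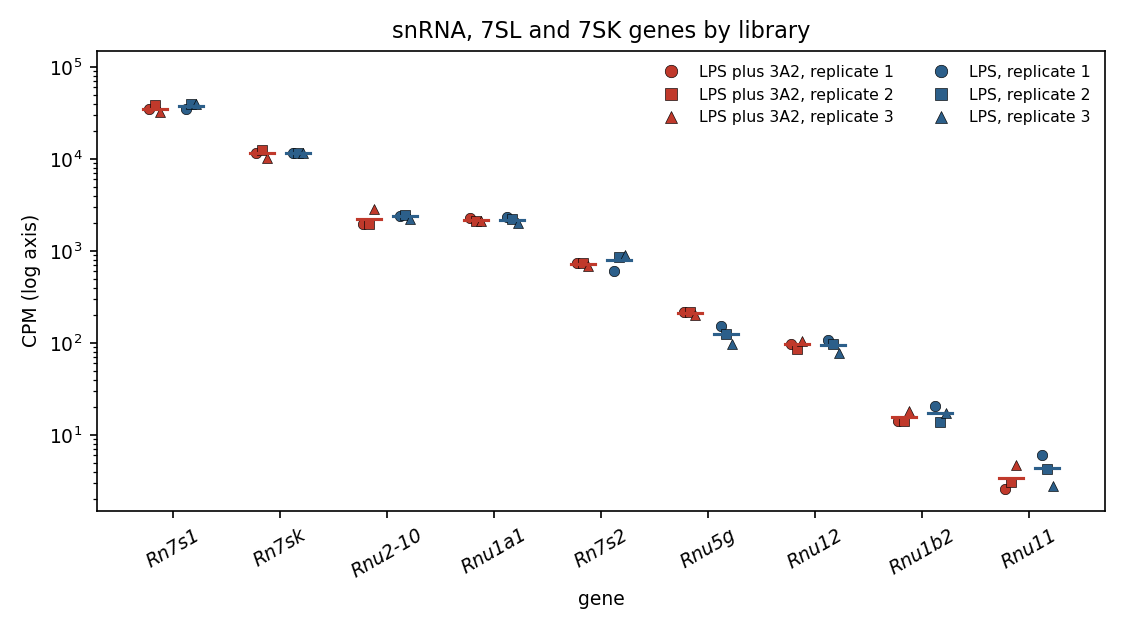
CPM on a log axis (y) of the tested snRNA, 7SL and 7SK genes in every library; bars are group means, red LPS plus 3A2 and blue LPS. The genes span levels of 3.44 CPM for Rnu11 to 35170 CPM for Rn7s1 in the LPS plus 3A2 means, and the groups overlap for each gene other than Rnu5g.

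7SL made up most of the small RNA counts. Rn7s1 measured 34990, 38370 and 32140 CPM with LPS plus 3A2 and 34720, 39240 and 39730 CPM with LPS, a fold change of 0.928 (95% interval 0.843 to 1.02). The groups overlapped, with LPS plus 3A2 replicate 3 lowest. Rn7s2 has the same annotated sequence of 300 bases as Rn7s1 and had 742.6, 742.4 and 679.2 CPM with LPS plus 3A2 and 611.0, 862.0 and 910.1 CPM with LPS, so the division of reads between them is uncertain. Rn7sk, the 7SK gene, overlapped as well. It had 11650, 12630 and 10200 CPM with LPS plus 3A2 and 11680, 11510 and 11530 CPM with LPS, a fold change of 0.993 (95% interval 0.904 to 1.09).

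Among the H/ACA RNAs the abundant ones were bounded to small differences and 0 of 19 tested were called. Of the 19, 7 had a log2 fold change above 0 and 12 below, with a median of -0.06, and 8 intervals lay within 1.5-fold. Snora73b, a U17 RNA that acts in cutting the ribosomal precursor and lies in an intron of Rcc1, had 276.6, 273.0 and 265.0 CPM with LPS plus 3A2 and 260.8, 297.5 and 267.1 CPM with LPS, a fold change of 0.987 (95% interval 0.897 to 1.08). Snora73a, 96.6% identical to it and in the same host gene, had a fold change of 0.967 (0.878 to 1.07). Both overlapped, with LPS replicate 2 highest. Snora74a averaged 55.9 ± 4.92 CPM with LPS plus 3A2 and 61.5 ± 3.37 CPM with LPS (SD, n = 3 each). Snora23 averaged 15.3 ± 3.26 CPM with LPS plus 3A2 and 16.4 ± 2.28 CPM with LPS, and both genes overlapped between the groups.

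The H/ACA RNAs with the smallest p-values were of low level. Snora43 had 4.05, 3.69 and 4.0 CPM with LPS plus 3A2 and 6.58, 6.41 and 3.68 CPM with LPS, with a fold change of 0.701 (95% interval 0.478 to 1.03). Snora78 had 7.13, 5.69 and 4.0 CPM with LPS plus 3A2 and 9.5, 7.21 and 6.13 CPM with LPS, with a fold change of 0.737 (0.524 to 1.04). Snora7a, which lies in Rpl32, had 8.91, 12.6 and 10.0 CPM with LPS plus 3A2 and 8.33, 9.21 and 7.51 CPM with LPS, with a fold change of 1.26 (0.965 to 1.64). All 3 overlapped between the groups, with adjusted p of 0.757 to 0.762 by edgeR.

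Among the box C/D RNAs, 0 of 22 tested were called, 13 had a log2 fold change above 0 and 9 below, and the median was 0.03. Only 4 of the 22 intervals lay within 1.5-fold, and the median SD between replicates was 0.44 on the log2 scale. U3, which acts in the first cuts of the ribosomal precursor, gave the most counts. Snord3b1 and its 2 identical rows had 860.9, 718.4 and 956.8 CPM with LPS plus 3A2 and 913.2, 861.7 and 819.2 CPM with LPS, a fold change of 0.978 (95% interval 0.863 to 1.11). Snord3a had 300.5, 221.7 and 371.3 CPM with LPS plus 3A2 and 444.6, 411.7 and 314.8 CPM with LPS, a fold change of 0.762 (0.476 to 1.22). Its groups overlapped through LPS plus 3A2 replicate 3 and LPS replicate 3. Snord3b4 had 171.0, 197.7 and 189.0 CPM with LPS plus 3A2 and 156.3, 353.6 and 144.4 CPM with LPS, where LPS replicate 2 stood apart from the other libraries.

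The C/D RNAs past an unadjusted p of 0.05 carried few counts or a small difference. Snord83b, which lies in an intron of the ribosomal protein gene Rpl3, had 17, 12 and 20 counts with LPS plus 3A2 and 13, 7 and 6 with LPS. This was 2.75, 1.84 and 3.33 CPM with LPS plus 3A2 and 1.9, 0.935 and 0.92 CPM with LPS, a fold change of 2.09 (95% interval 1.16 to 3.76; adjusted p = 0.719 by edgeR). LPS plus 3A2 replicate 2 lay just below LPS replicate 1. Snord15a, a U15 RNA in an intron of Rps3, had 27.7, 26.1 and 25.8 CPM with LPS plus 3A2 and 36.5, 34.2 and 25.4 CPM with LPS, a fold change of 0.826 (0.688 to 0.993; adjusted p = 0.749 by edgeR). The groups overlapped through LPS replicate 3 alone. Snord15b, the other U15 RNA of the same host, had a fold change of 0.934 (0.637 to 1.37).

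The sequences of these RNAs and of Snord14d, which varied widely between libraries, show the 2 boxes that bind the C/D proteins. Capitals mark the C box (TGATGA, in 26.1% of 1507 annotated snoRNA transcripts on the RNA strand) near the 5′ end and the D box (CTGA, in 79.5%) near the 3′ end. Other copies of CTGA are left in lower case.
Snord83b: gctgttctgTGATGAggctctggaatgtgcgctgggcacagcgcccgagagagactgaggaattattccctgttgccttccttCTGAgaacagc
Snord15a: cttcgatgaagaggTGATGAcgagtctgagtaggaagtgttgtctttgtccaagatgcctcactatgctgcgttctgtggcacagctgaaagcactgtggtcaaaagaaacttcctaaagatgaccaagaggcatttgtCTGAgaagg
Snord14d: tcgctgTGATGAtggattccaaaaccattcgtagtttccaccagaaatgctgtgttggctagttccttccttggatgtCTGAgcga
Snord33: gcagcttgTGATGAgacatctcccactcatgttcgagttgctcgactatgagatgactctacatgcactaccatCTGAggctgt
Snord33 comes from Rpl13a, whose snoRNAs are known from mammalian cells for a part in the response to lipotoxic stress. It had 4.21, 4.0 and 6.0 CPM with LPS plus 3A2 and 1.75, 4.41 and 2.76 CPM with LPS, a fold change of 1.57 (95% interval 0.995 to 2.47), and the groups overlapped. Snord32a of the same gene had a fold change of 1.12 (0.712 to 1.76). Snord34 and Snord35a, also from Rpl13a, had 17 and 20 counts over all libraries and fell below the filter.

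**Figure D4:**
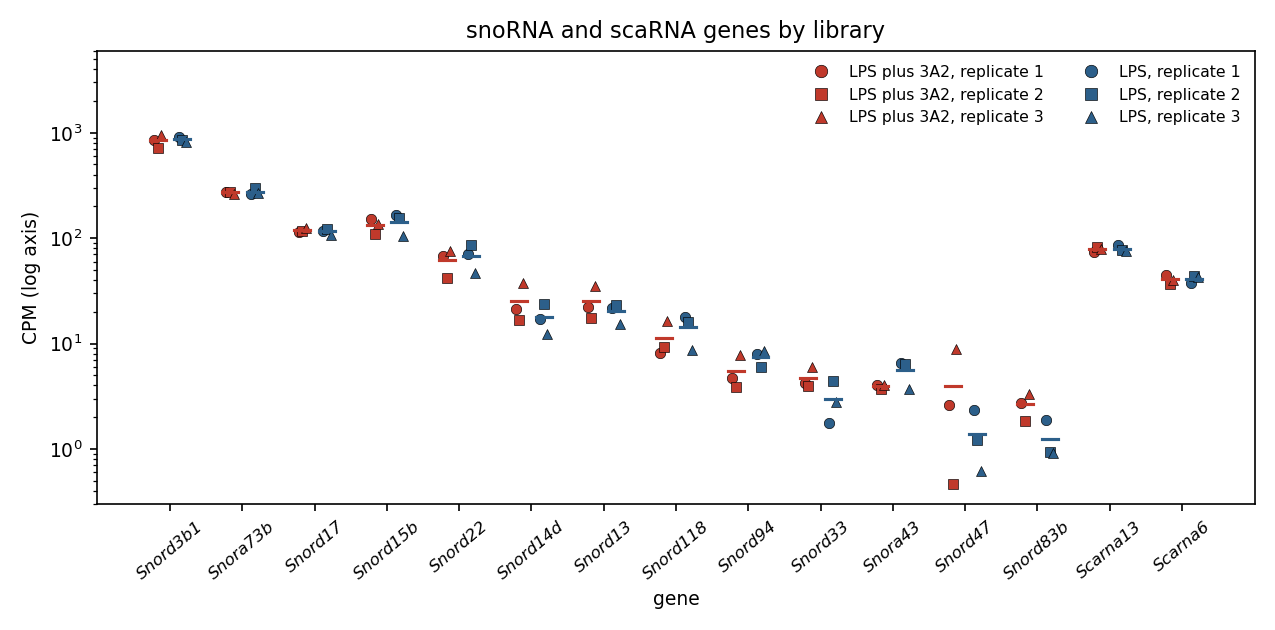
CPM on a log axis (y) of 15 snoRNA and scaRNA genes in every library; bars are group means, red LPS plus 3A2 and blue LPS. Snora73b, Snord17, Scarna13 and Scarna6 lie tightly together, while Snord14d, Snord13, Snord118 and Snord47 spread widely within each group.

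The Cajal body RNAs were among the steadiest. Scarna13, in the host transcript Snhg10, had 74.3, 82.0 and 78.3 CPM with LPS plus 3A2 and 86.5, 76.7 and 75.4 CPM with LPS, a fold change of 0.984 (95% interval 0.875 to 1.11). Scarna6, in an intron of Atg16l1, had 44.9, 37.0 and 39.7 CPM with LPS plus 3A2 and 37.1, 43.4 and 42.6 CPM with LPS, a fold change of 0.986 (0.849 to 1.15). Both intervals lay within 1.5-fold. Scarna3a and Scarna3b had 32 counts each over all libraries and fell below the filter. Of the other genes below it, the 11 Snora had 12 to 55 counts, led by Snora31 with 55 and Snora16a with 54, and the 10 Snord had 15 to 42, led by Snord82 with 42 and Snord110 with 25.

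Among the genes of known length, the spread between replicates was wider for short RNAs than for long ones. Among the 26 distinct tested genes with a mean of at least 10 CPM and a known length, 12 were shorter than 150 nt and 14 were longer. The abundant U3 genes had no length and were left out. Their SDs between replicates were 0.16 for Snord3b1, 0.32 for Snord3a and 0.51 for Snord3b4. The median SD between replicates was 0.40 on the log2 scale for the short RNAs and 0.11 for the long ones. It was 0.12 for the 8914 genes of all kinds with a mean of at least 10 CPM, which were not matched in level. Most of the short RNAs were also lower in level, and length and level were not separated. Rnu1b2 and Snora23, long but with means of 16.4 and 15.8 CPM, had SDs of 0.26 and 0.25. Snord22 and Snord15b, short with means of 65.0 and 136.9 CPM, had 0.46 and 0.30. In LPS replicate 3 all 12 short RNAs lay below their own mean over the 6 libraries, by a median of -0.47 on the log2 scale, while the long ones had a median of -0.04. LPS plus 3A2 replicate 2 was low as well, with medians of -0.28 for the short and -0.02 for the long RNAs. In LPS plus 3A2 replicate 3 the medians were 0.31 and -0.02, in LPS plus 3A2 replicate 1 they were 0.08 and -0.02, and in LPS replicates 1 and 2 the short RNAs had 0.19 and 0.18. Each group thus held a library low in short RNAs.

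Across the 26 genes, which share the library and its depth, the rank correlation of length with the deviation (Spearman's rho) was 0.893 in LPS replicate 3 and 0.621 in LPS plus 3A2 replicate 2. It was -0.585 in LPS plus 3A2 replicate 3, -0.403 in LPS plus 3A2 replicate 1, and -0.298 and -0.288 in LPS replicates 1 and 2. Snord14d, of 86 nt, shows the range, with 21.2, 16.9 and 37.8 CPM with LPS plus 3A2 and 16.96, 23.9 and 12.3 CPM with LPS. Snord13, the U13 RNA, and Snord14c also were highest in LPS plus 3A2 replicate 3, at 35.5 and 27.0 CPM. Rnu5g, of 116 nt, had the sign of the short RNA median in LPS replicate 3, at -0.72 from its mean. It had that sign also in LPS plus 3A2 replicates 1 and 3, at 0.42 and 0.30. Its sign was opposite in LPS plus 3A2 replicate 2, at 0.42, and in LPS replicates 1 and 2, at -0.06 and -0.36. The part of this length pattern in the results above was not tested.

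**Figure D5:**
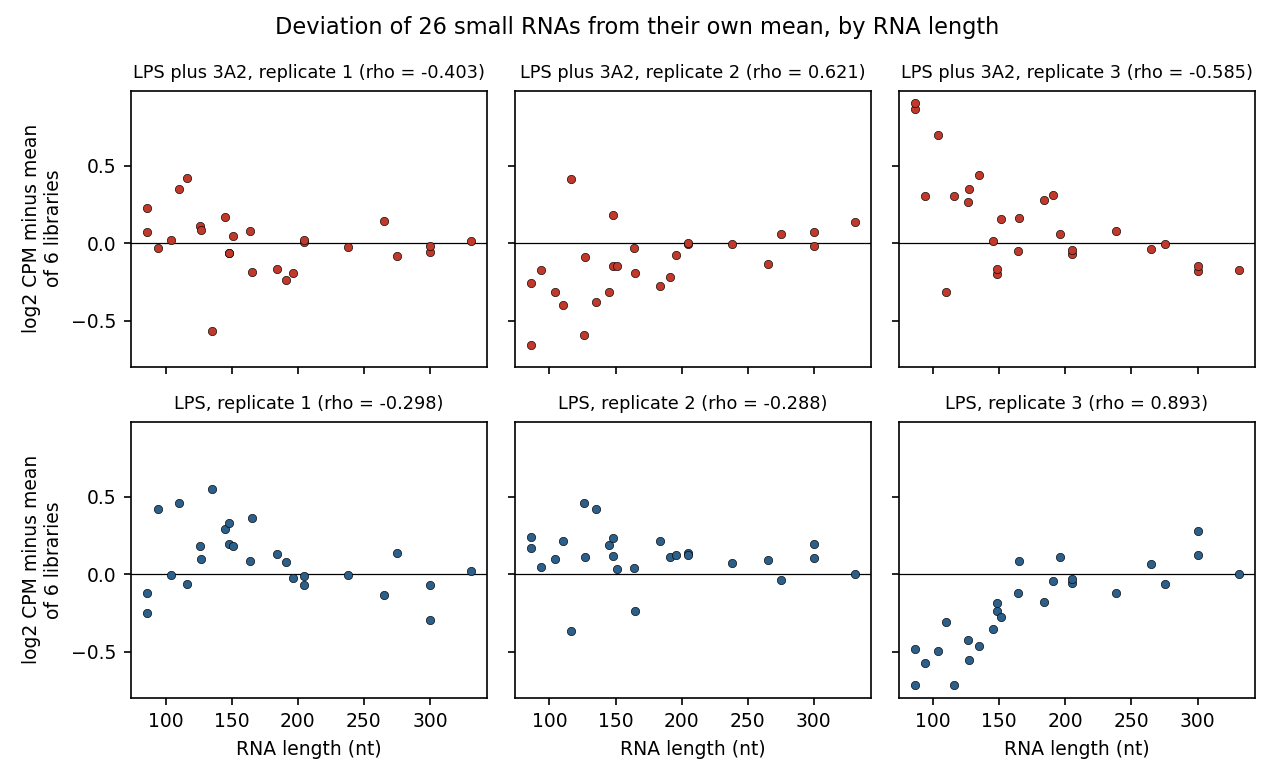
Log2 CPM of each of 26 small RNAs minus its mean over the 6 libraries (y axis) against RNA length in nt (x axis), 1 panel per library, LPS plus 3A2 above and LPS below, with Spearman's rho. Points slope upward in LPS plus 3A2 replicate 2 and most steeply in LPS replicate 3, and downward in the other 4 libraries.

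Most snoRNAs are cut out of introns of host genes, and the hosts moved little. Of the 68 snoRNA and scaRNA genes, 61 had a GENCODE entry and 55 lay inside a gene on the same strand, 20 of them in ribosomal protein genes. For 27 of the 55 the annotation places the RNA over an exon of some host transcript, so that host and snoRNA reads can be shared there. The hosts tested also included Tex14, whose intron holds the U1 gene Rnu1a1, which is not a snoRNA. Among the 24 distinct hosts tested, log2 fold changes ran from -0.16 to 0.09, 0 were called, and the smallest adjusted p was 0.749 by edgeR. In 30 pairs of tested small RNA and host, 13 had the same sign, the pair of Rnu1a1 and Tex14 among them. Rpl3, host of Snord83b, had a log2 fold change of -0.06, and Rps3, host of Snord15a, of -0.08.

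Proteins that bind, build or transcribe these RNAs showed 0 calls among 147 tested of 149 listed genes. Log2 fold changes were above 0 for 79 and below 0 for 68, with a median of 0.01, and the groups did not overlap for 14.3%, against 12.3% of all genes. Under an unadjusted p of 0.05 there were 6 higher and 5 lower, where over all genes 3.43% were higher and 3.09% lower. Of the 17 Sm and Sm-like ring proteins, 14 were above 0, with a median of 0.11 and none called. Lsm8, part of the ring on U6, had the smallest p of all these, with 20.4, 17.5 and 19.3 CPM with LPS plus 3A2 and 12.9, 13.1 and 12.4 CPM with LPS, a fold change of 1.49 (95% interval 1.22 to 1.81; adjusted p = 0.530 by edgeR). All its LPS plus 3A2 libraries lay above its LPS libraries, and the replicates of each group lay close together. Snrpb, the most abundant of this list, had a fold change of 0.995 (0.900 to 1.1).

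The proteins of the U4/U6.U5 particle, in which U5 works, were 4 above 0 and 12 below, with a median of -0.08. Prpf8, the large U5 protein at the catalytic core, had 532.4, 525.0 and 533.9 CPM with LPS plus 3A2 and 516.7, 500.5 and 523.8 CPM with LPS, a fold change of 1.03 (95% interval 0.950 to 1.12). These groups did not overlap, but the difference was small, with an adjusted p of 0.891 by edgeR. Prpf31 was at 0.884 (0.787 to 0.994). Of the U1 and U2 proteins 9 of 15 were above 0, with Sf3b1 at 1.09 and Sf3b2 at 0.914, and of the minor spliceosome proteins 4 of 8, with Zcrb1 at 0.957 and Zmat5 at 0.837. Of the 7SK and P-TEFb proteins 3 of 7 were above 0, with the kinase Cdk9 at 1.01 and the capping enzyme Mepce at 0.901.

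For the snoRNA proteins, 7 of 11 C/D genes and 4 of 6 H/ACA genes were above 0. Nop56, a core C/D protein, had a fold change of 0.965, and Znhit6, an assembly factor, had 10.7, 12.1 and 12.3 CPM with LPS plus 3A2 and 17.2, 18.3 and 12.4 CPM with LPS, a fold change of 0.731 (95% interval 0.578 to 0.924; adjusted p = 0.719 by edgeR). Of the H/ACA core proteins, Gar1 was at 1.24 (1.05 to 1.46; adjusted p = 0.719 by edgeR) and Nhp2 at 1.03. Of 14 Cajal body and nucleolar organisers 7 were above 0, with the nucleolar protein Npm1 at 1.05 and the snoRNP chaperone Nolc1 at 0.874 (0.787 to 0.971). Of 8 signal recognition particle proteins 5 were above 0, with Srp54b at 1.08 and Srp68 at 0.860 (0.765 to 0.967).

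Factors that make the snRNAs were 12 above 0 and 16 below, with the Integrator subunits Ints7 at 1.21 (95% interval 1.07 to 1.37; adjusted p = 0.719 by edgeR) and Ints1 at 0.929. Of 17 RNA polymerase III genes, which serve 7SL, 7SK and U6, 10 were above 0, with the La protein gene Ssb at 0.991 and the large subunit Polr3a at 0.874 (0.749 to 1.02). Of 8 other small structured RNAs tested, 3 were above 0 and 5 below. In each of these lists 0 genes passed after adjustment in either direction.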

How the data were processed

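Total RNA from TRIzol and a column was depleted of ribosomal RNA and made into strand-specific paired-end libraries, per the labels' protocols. The authors deposited raw read counts per gene symbol, 1 column per library. HISAT2 and edgeR are listed, with no role given, per the submitters' processing notes. What counted the reads, with which strand setting and handling of multiply mapped reads, is not given in the sources used here. Since the notes name the human build GRCh38 and the symbols are murine, no coordinates are printed. Cells typed into 3 unnamed columns were not used.

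Groups came from the labels. Genes passing filterByExpr were scaled by TMM. LPS plus 3A2 was compared with LPS in edgeR 4.0.16 under R 4.3.3 (quasi-likelihood F test, robust, no covariate). Two-sided p-values were adjusted over all genes tested (Benjamini-Hochberg, threshold 0.05). CPM used TMM-scaled totals. Depth is the total count per library, and over all genes the median SE of log2 fold changes was 0.12. All library pairs differed by more than sampling noise.

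RNA lengths, sequences and host genes came from GENCODE M21 (GRCm38), matched by symbol for 71 of 78 genes. A RefSeq table of the same assembly matched 73 and gave lengths for Snord73b and Snord94. Related genes were those at least 90% identical by edit distance (edlib). Sums over a family count identical rows once. Alternatives were DESeq2 1.42.0, limma-voom 3.58.1, other scalings and filters, non-robust estimation, a replicate block, identical rows merged and each library left out. DESeq2 with its own filter, and leaving out the 2 libraries lowest in short RNAs, were added after seeing the data. The genes and lists were chosen with earlier results of these data known. Genes named in full were, per class, the 4 most abundant tested and the 3 with the smallest p. Rnu5g was added since an earlier account of these data names it. Per protein list they were the most abundant and that with the smallest p. Snord17, Snord22, Snord13, Snord14c, Snord14d, Snord32a, Snord47, Snord118 and the U1, U2 and U5 relatives were named after their values were seen. Some U5 sequences are not reported here.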

Additional observations from a re-analysis of the deposited data

How the results depend on the processing

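Called small RNAs numbered 0, and 1 (Rnu5g) without a filter, with DESeq2's own filter, with a replicate block and with LPS replicate 3 and LPS plus 3A2 replicate 2 both left out; leaving out single libraries gave 0 to 1. Calls over all genes, 0 as reported, were 16 without a filter, 1 with DESeq2's own filter, 1 with the block, 8 with both libraries out and 0 to 24 with single libraries out, the 24 without LPS plus 3A2 replicate 2. The block put Rnu5g at an adjusted p of 6.09e-05 by edgeR, but no pairing by replicate number was seen. Same-numbered libraries deviated with r of 0.0035, 0.053 and -0.14, and 1 of 6 correlated best with their own number. With so few libraries these values cannot show whether the cultures were paired. Protein genes had 0 calls in each setting. The log2 ratio of each class sum moved by less than the SD between replicates in the settings tried, but with single libraries out it changed sign for Rnu (-0.096 to 0.035) and Snora (-0.076 to 0.028), and for Rnu also without its most abundant gene (0.042). Log2 fold changes with single libraries left out changed sign, over -0.28 to 0.020 for Rnu2-10, -0.063 to 0.038 for Rnu1a1, -0.089 to 0.13 for Rnu12, -0.30 to 0.0091 for Rnu1b2, -0.083 to 0.070 for Rn7sk, -0.056 to 0.041 for Snora73b, -0.087 to 0.011 for Snora73a, -0.29 to 0.0027 for Snora23, -0.13 to 0.072 for Snord3b1, -0.46 to 0.31 for Snord3b4, -0.27 to 0.028 for Snord15b, -0.060 to 0.042 for Scarna13 and -0.099 to 0.042 for Scarna6. Among protein genes they did so over -0.031 to 0.026 for Snrpb, -0.17 to 0.045 for Zcrb1, -0.061 to 0.061 for Cdk9, -0.090 to 0.020 for Nop56, -0.062 to 0.15 for Nhp2 and -0.084 to 0.039 for Ssb. With both libraries out, the sign changed to -0.010 for Rnu12, 0.034 for Snord3b1, 0.067 for Scarna6, -0.062 for Nhp2 and 0.0050 for Ssb. The cause was not tested. Scalings moved the median of all genes by under 0.011. Genes below the filter had 12 to 93 counts in all and were not tested.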
